A study of Mus musculus with 4 samples.

Results

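Methylation of lysine 36 of histone H3 (H3K36) is written by one group of enzymes and removed by another. The 10 genes described here are the H3K36 methyltransferases Nsd1, Nsd2, Nsd3, Setd2 and Ash1l and the H3K36 demethylases Kdm2a, Kdm2b, Kdm4a, Kdm4b and Kdm4c, taken by gene symbol from the 55401 genes listed in the deposited counts. Each symbol matched 1 row. NSD1, NSD2, NSD3 and ASH1L place mono- and dimethyl groups on H3K36, and SETD2, which travels with elongating RNA polymerase II, is the main enzyme that makes the trimethyl mark. KDM2A and KDM2B remove the lower methylation states, while KDM4A, KDM4B and KDM4C act on trimethylated H3K36 and also on methylated H3K9. Dimethylated H3K36 is found over broad regions between and within genes, and the trimethylated form over the bodies of transcribed genes.

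RNA-seq was done on B220+ B cells sorted to high purity from the spleen of C57BL/6J mice, with 2 libraries from NSD1B WT mice (Mb1-Cre+ NSD1+/+) and 2 from NSD1B KO mice (Mb1-Cre+ NSD1fl/fl). Both genotypes carried Mb1-Cre, a Cre recombinase expressed from the Cd79a locus and active from early B cell development, and the controls were littermates. The study used young adult mice of both sexes, and the sources used here do not give the age and sex behind each library. Nothing says whether the 2 libraries of a genotype came from separate mice, so p-values measure the spread between these libraries, which may be technical.

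Counts on genes were between 6769118 and 7566834 per library. A gene was called changed when edgeR's quasi-likelihood test gave a Benjamini-Hochberg adjusted p below 0.05 and the fold change was above 1.2, and SE is the standard error of a log2 fold change. The 7 B cell markers, among them Cd79a, Cd79b, Ms4a1 and Pax5, were all counted, with a sum of 12583 to 12807 CPM (counts scaled to library size) in NSD1B WT and 11106 to 12099 in NSD1B KO, and 5 of the 7 were called lower in NSD1B KO. Most of this sum was Cd79b, at 6825 ± 65.3 and 8159 ± 532 CPM, while Cd79a was 2.52-fold lower and Pax5 9.76-fold lower in NSD1B KO (42.9 ± 5.47 and 4.39 ± 0.310 CPM). Markers of other cells also moved with the genotype. Of 6 erythroid genes 5 were called higher, with a sum of 35.6 to 39.6 CPM in NSD1B WT and 1690 to 1944 in NSD1B KO. Of 5 monocyte and macrophage genes 4 were called higher and 1 lower, with sums of 4564 to 4670 and 5732 to 6080 CPM. Most of that sum was Lyz2, which was 1.27-fold higher, while Adgre1 was 1.88-fold and Csf1r 14.7-fold higher. Itgam went the other way, from 76.1 ± 11.3 CPM in NSD1B WT to 43.8 ± 8.28 in NSD1B KO. Cd14 had 4 and 9 counts in NSD1B WT and 71 and 77 in NSD1B KO. It passed the filter on low counts only through NSD1B KO, so its call is no support for the count. Of 5 T cell genes, 2 could be tested and both were called higher, with sums of 23.9 to 26.9 and 49.8 to 52.0 CPM, while Cd4 and Cd8a had no count. Of 4 germinal centre genes 3 were called lower and 1 higher, with sums of 39.2 to 43.9 and 13.5 to 15.6 CPM. Of 3 plasma cell genes 1 was called higher and 1 lower, with sums of 129 to 146 and 99.4 to 102 CPM and no count for Sdc1. Of 2 platelet genes, Pf4 was called higher (154 to 167 and 223 to 232 CPM) and Ppbp had no count. NK cell, neutrophil and dendritic cell genes summed to at most 5.46 CPM for each cell type in any library. There was no count for Ncr1, Gzma, Ly6g, Mpo, Itgax, Flt3 and Siglech. Klrb1c and S100a8 had no count in NSD1B KO and S100a9 had none in NSD1B WT, so no call is given for them. The part of these cells in the results below was not tested. In bulk RNA, fewer cells of a type and less RNA per cell cannot be told apart.

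The floxed Nsd1 allele has loxP sites around exons 6 to 8, so the first and last of the exons that Cre removes are shown. Nsd1 (ENSMUSG00000021488.8) lies on the plus strand of chromosome 13 from 55209782 to 55318325 in mm10. The exon numbers here follow transcript ENSMUST00000099490.2 of GENCODE M21, which has 23 exons and 2691 codons, and the transcript behind the numbers of the floxed exons is not named in the sources used here. All 3 removed exons are coding over their whole length. Exon 6 (chr13:55260344-55260468, 125 nt) and exon 8 (chr13:55263333-55263442, 110 nt) read, from 5′ to 3′ on the plus strand:
Nsd1 exon 6: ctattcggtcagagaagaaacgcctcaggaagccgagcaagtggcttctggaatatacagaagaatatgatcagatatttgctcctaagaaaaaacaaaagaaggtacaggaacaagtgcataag
Nsd1 exon 8: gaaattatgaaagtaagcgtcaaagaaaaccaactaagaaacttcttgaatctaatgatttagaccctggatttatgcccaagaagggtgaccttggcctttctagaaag

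Joining exon 5 directly to exon 9 would shift the reading frame, because the 506 nt removed leave a remainder of 2 after division by 3. The sequence across such a join is shown with the last 30 nt of exon 5, and capitals mark the first stop codon in the shifted frame:
Exon 5 joined to exon 9: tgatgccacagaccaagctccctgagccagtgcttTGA
The stop lies within the first 8 nt of exon 9, after 1268 codons in place of 2691. This follows from the annotation alone, since the counts cover whole genes and no exon junction was measured. The 3 exons make up 3.96% of the 12784 nt of the transcript, so reads from a transcript without them would still be counted on Nsd1.

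**Figure D1:**
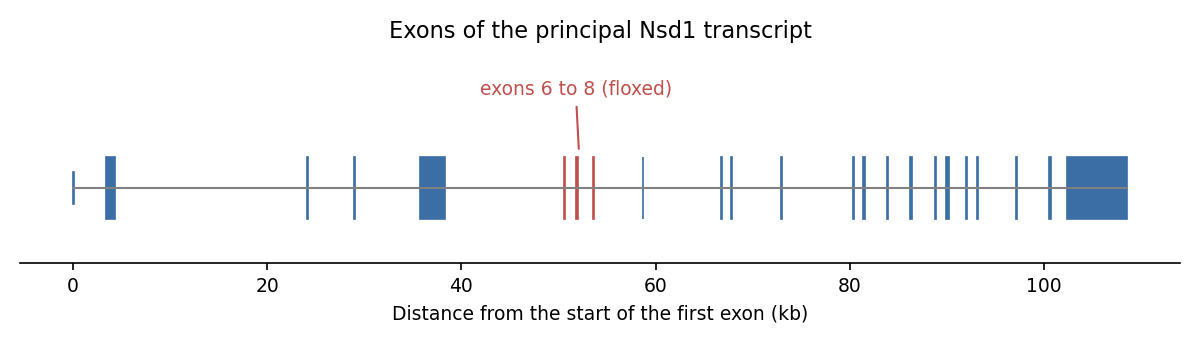
Exons of the principal Nsd1 transcript drawn to scale against distance from the start of the first exon in kb. Tall boxes are exons with coding sequence, the short box has none, and the 3 floxed exons (6 to 8, in red) lie between the long exon 5 and exon 9.

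In the NSD1B WT libraries the members spanned a wide range of levels. To compare genes with each other, CPM were scaled by edgeR's TMM method and divided by the length of all annotated exons of the gene in kilobases (CPM per kb). Setd2 had the highest level, at 6.87 and 5.22 CPM per kb, followed by Nsd1 at 3.98 and 3.76. Kdm2a came next at 2.46 and 2.48, ahead of Nsd3 at 1.96 and 2.05 and Kdm4c at 1.90 and 1.81. Ash1l was at 1.12 and 1.21, Nsd2 at 0.700 and 0.725, Kdm2b at 0.567 and 0.403, and Kdm4a at 0.242 and 0.450. Kdm4b was nearly silent, at 0.0572 and 0. Kdm2b and Kdm4a were the only neighbours in this order whose libraries overlapped. With the length of the longest annotated transcript instead, Nsd2 (1.51 to 1.56) lay above Ash1l (1.43 to 1.54) and these overlapped, while Kdm2b and Kdm4a did not. Among all tested genes Setd2 was above 56.9%, Nsd1 above 46.7% and Kdm4b above 8.46% in CPM per kb.

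The order differed in NSD1B KO. Setd2 (11.4 and 11.3 CPM per kb) and Kdm4c (11.5 and 11.2) overlapped at the top, and each then lay above 70.4% or more of the tested genes. Nsd3 (4.02 and 4.11) and Kdm2a (2.63 and 3.03) stood above Nsd1 (2.26 and 2.38). Kdm4b (2.24 and 2.13), Ash1l (2.08 and 2.09) and Nsd2 (0.811 and 0.734) followed without overlap between neighbours. Kdm4a (0.216 and 0.411) and Kdm2b (0.294 and 0.164) overlapped at the bottom. With the longest transcript as the length, Kdm4c (15.5 to 16.0) stood above Setd2 (14.6 to 14.7), and Ash1l (2.65 to 2.67) above Kdm4b (2.27 to 2.40), while Kdm2b and Kdm4a overlapped in the reverse order.

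**Figure D2:**
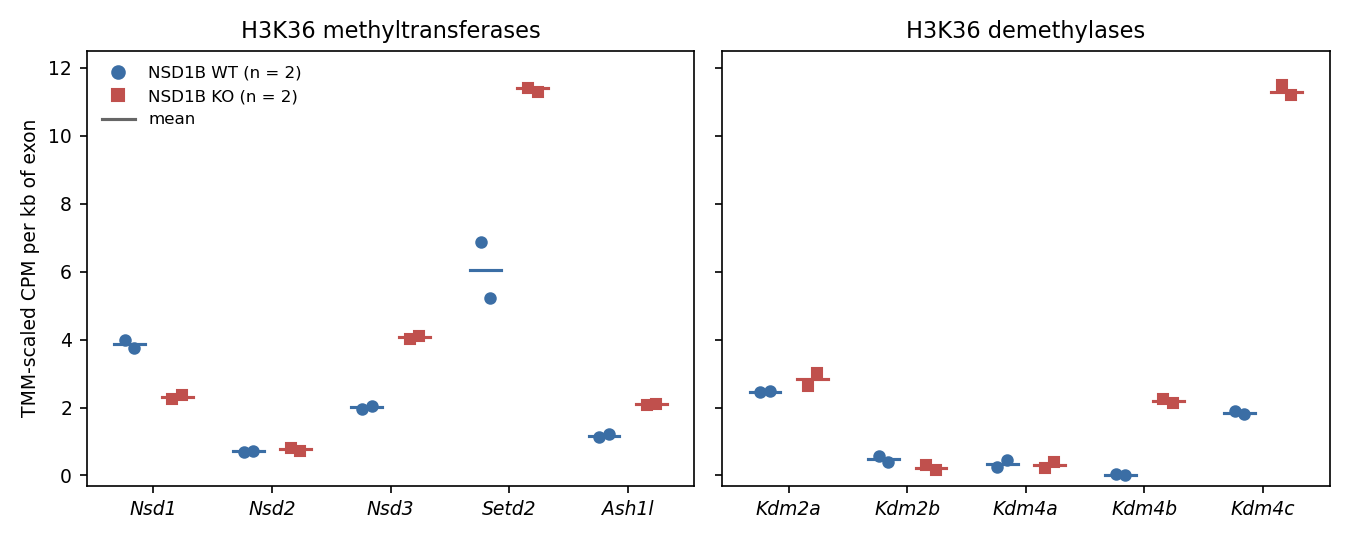
Level of each member in each library, as TMM-scaled CPM per kb of exon on a linear axis, for methyltransferases (left) and demethylases (right). Points are single libraries and lines the means of the 2 libraries of a genotype, and Kdm4c and Setd2 are above 11 in NSD1B KO while Nsd1 is the methyltransferase whose NSD1B KO points lie below its NSD1B WT points.

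Of the 10 members 5 were called higher and 2 lower in NSD1B KO, and 3 were not called. All 10 passed the filter on low counts, but Kdm4b only through its counts in NSD1B KO, so its call is no support for the count, and with a filter of 1 CPM in all libraries 9 members were tested and 4 called higher. Changes were common in these libraries, with 78.2% of the 11657 tested genes called, 37.1% higher and 41.1% lower. This balance turned with a correction for exon length and GC content, which gave 5237 genes higher and 3897 lower, or 57.3% of calls higher in place of 47.4%. The libraries of the genotypes did not overlap for 9 of the 10 members, against 88.1% of all tested genes. The share of members called, 70%, is near this background. Among the methyltransferases, 3 were called higher, 1 lower and 1 not, with a median log2 fold change of 0.84 (range -0.74 to 1.02). Among the demethylases, 2 were called higher, 1 lower and 2 not, with a median of 0.19, beside -0.10 over all tested genes. The median of the demethylases turned to -0.02 where Kdm4b was left out by a stricter filter.

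**Figure D3:**
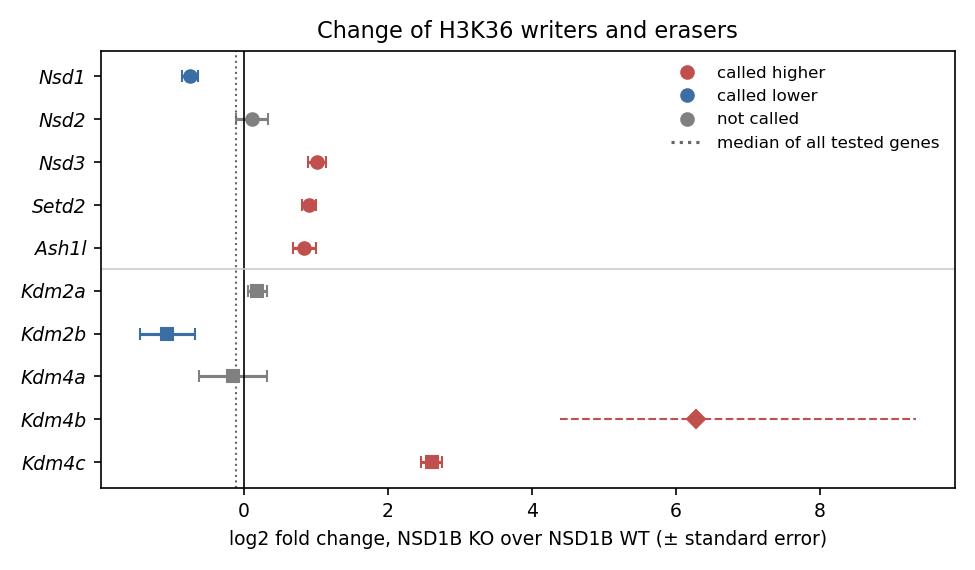
log2 fold change of NSD1B KO over NSD1B WT for the 5 methyltransferases (top) and the 5 demethylases (bottom), with edgeR standard errors as bars, the ratio of counts with a dashed 95% counting interval for Kdm4b, and a dotted line at the median of all tested genes (-0.10). Kdm4b and Kdm4c lie farthest to the right, and Nsd1, Kdm2b and Kdm4a are left of 0.

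Nsd1, the targeted gene, had 497 and 480 counts in NSD1B WT and 284 and 280 in NSD1B KO, or 67.6 ± 2.75 and 40.5 ± 1.52 CPM (mean ± SD, n = 2). Both NSD1B KO libraries were below both NSD1B WT libraries. The log2 fold change was -0.74 (SE 0.11, edgeR quasi-likelihood adjusted p = 8.08e-08), so 0.600 of the NSD1B WT level was still counted. Of all tested genes, 37.2% changed by less than Nsd1. No window of 100 nt in its longest transcript was found in a transcript of another gene, and none was shared among the 10 members.

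Nsd3 and Nsd2 are the paralogs of Nsd1 with the same kind of SET domain. Nsd3 lies on chromosome 8 (25601601 to 25719667, plus strand) and rose in NSD1B KO. It had 231 and 248 counts in NSD1B WT and 478 and 457 in NSD1B KO, or 33.1 ± 1.13 and 67.2 ± 1.06 CPM. The groups did not overlap, and the log2 fold change was 1.02 (SE 0.12, edgeR adjusted p = 6.00e-11). Nsd2, on chromosome 5 (33820725 to 33897975, plus strand), was not called. Its counts were 84 and 89 in NSD1B WT and 98 and 83 in NSD1B KO, a log2 fold change of 0.12 (SE 0.22, edgeR adjusted p = 0.626), and the approximate 95% interval of its fold change, 0.806 to 1.46, leaves room for a moderate change in either direction. Nsd2 shares 60 bp of exon with Nelfa on the opposite strand, which had no count in NSD1B WT and 61 and 47 counts in NSD1B KO. Nelfa entered the test only through its NSD1B KO counts, so no call is given for it.

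The level of the NSD family as a whole, summed over Nsd1, Nsd2 and Nsd3, was 6.64 and 6.53 CPM per kb in NSD1B WT and 7.09 and 7.23 in NSD1B KO. Nsd1 made up 27.2% and 29.0% of the summed level of the 5 methyltransferases in NSD1B WT and 11.0% and 11.5% in NSD1B KO. Thus the family sum was higher in both NSD1B KO libraries while the Nsd1 part of the methyltransferase sum was lower.

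Ash1l encodes a large SET domain protein of the trithorax group and lies on chromosome 3 (88950622 to 89079375, plus strand). It rose from 119 and 131 counts in NSD1B WT to 222 and 209 in NSD1B KO, or from 17.3 ± 0.896 to 31.0 ± 0.152 CPM. The log2 fold change was 0.84 (SE 0.16, edgeR adjusted p = 7.36e-06), with no overlap between genotypes. Ash1l shares 352 bp of exon (2.37%) with Dap3 on the opposite strand. Dap3 fell, with a log2 fold change of -1.63 (SE 0.13, edgeR adjusted p = 2.35e-16), the opposite direction to Ash1l. Summed over Nsd1, Nsd2, Nsd3 and Ash1l, the methyltransferases of the lower methylation states stood at 7.76 and 7.74 CPM per kb in NSD1B WT and 9.17 and 9.32 in NSD1B KO.

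Setd2, on chromosome 9 (110532597 to 110618633, plus strand), had the highest level per kb of any methyltransferase in both genotypes, though in CPM without division by length it lay below Nsd1 in the mean of NSD1B WT. Its counts were 528 and 410 in NSD1B WT and 885 and 820 in NSD1B KO, or 65.0 ± 12.6 and 122 ± 0.777 CPM. The NSD1B WT libraries stood further apart than for Nsd1, yet both were below both NSD1B KO libraries. The log2 fold change was 0.91 (SE 0.10, edgeR adjusted p = 4.09e-11) and lay between 0.75 and 1.16 with each library left out in turn.

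The largest changes among the members were in the KDM4 demethylases. Kdm4c, on chromosome 4 (74242497 to 74405860, plus strand), had 79 and 77 counts in NSD1B WT and 482 and 437 in NSD1B KO, or 10.8 ± 0.369 and 66.0 ± 1.43 CPM. The libraries of each genotype lay close together and far from those of the other, and Kdm4c was 6.11-fold higher (log2 fold change 2.61, SE 0.15, edgeR adjusted p = 3.60e-21). It changed by more than 69.3% of all tested genes.

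Kdm4b, on chromosome 17 (56326062 to 56402870, plus strand), had 2 and 0 counts in NSD1B WT and 79 and 70 in NSD1B KO. This was 0.140 ± 0.198 and 10.7 ± 0.405 CPM, from almost no reads to a level between those of Nsd1 and Ash1l per kb. Kdm4b entered the test only through its NSD1B KO counts, so no p is given for it. With so few reads in NSD1B WT the fold is poorly fixed, and the ratio of the summed counts was 77.4, with an exact 95% interval of 21.0 to 645 that covers counting error only. Both NSD1B WT counts came from replicate 1. Without it the gene was at 0 in NSD1B WT and at least 26.1-fold higher in NSD1B KO, with 3 counts set as the limit in replicate 2. A change of this form was not rare, as 324 tested genes (2.78%) had at most 2 counts over the NSD1B WT libraries and at least the 149 of Kdm4b over the NSD1B KO libraries, and 509 (4.37%) showed the reverse.

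Kdm4a, the founding member of the family, lies on chromosome 4 (118136957 to 118180043, minus strand) and was not called. It had 10 and 19 counts in NSD1B WT and 9 and 16 in NSD1B KO, and the groups overlapped. The log2 fold change was -0.15 (SE 0.47, edgeR adjusted p = 0.773), its sign changed when some libraries were left out, and the approximate 95% interval of the fold, 0.476 to 1.70, is wide at this depth. Summed over Kdm4a, Kdm4b and Kdm4c, the level was 2.20 and 2.26 CPM per kb in NSD1B WT and 14.0 and 13.7 in NSD1B KO.

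KDM2A and KDM2B have a CXXC zinc finger that binds unmethylated CpG dinucleotides. Kdm2a, on chromosome 19 (4314419 to 4398285, minus strand), was the demethylase with the highest level in NSD1B WT. Its counts were 254 and 262 in NSD1B WT and 273 and 294 in NSD1B KO. Both NSD1B KO libraries were above both NSD1B WT libraries in CPM, but the gene was not called (log2 fold change 0.19, SE 0.13, edgeR adjusted p = 0.173), with an approximate 95% interval of the fold of 0.956 to 1.37.

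Kdm2b, on chromosome 5 (122870665 to 122989823, minus strand), was called lower. It had 44 and 32 counts in NSD1B WT and 23 and 12 in NSD1B KO, or 5.27 ± 1.26 and 2.49 ± 0.999 CPM, with no overlap but a wide spread within each genotype. The log2 fold change was -1.06 (SE 0.38, edgeR adjusted p = 0.0103). The call was lost without NSD1B WT replicate 1 (log2 fold change -0.78, adjusted p = 0.244 by edgeR), without NSD1B KO replicate 2 (-0.71, adjusted p = 0.123) and with the Wald test of DESeq2 (-1.07, adjusted p = 0.0872). Its exons also overlap those of the ubiquitin ligase gene Rnf34 on the opposite strand by 627 bp (5.77%), and 21.1% of the 100 nt windows of its longest transcript were found in other genes. Rnf34 fell as well, with a log2 fold change of -0.39 (SE 0.17, edgeR adjusted p = 0.0330), and since the strand setting of the counting is not given, reads over the shared part are uncertain. The summed level of Kdm2a and Kdm2b was 3.03 and 2.88 CPM per kb in NSD1B WT and 2.92 and 3.19 in NSD1B KO, with overlap.

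Writers and erasers were then set against each other in each library. The summed level of the 5 methyltransferases was 14.6 and 13.0 CPM per kb in NSD1B WT and 20.6 and 20.7 in NSD1B KO. The summed level of the 5 demethylases was 5.22 and 5.14 in NSD1B WT and 16.9 in each NSD1B KO library. The methyltransferase sum was therefore 2.80 and 2.52 times the demethylase sum in NSD1B WT and 1.22 times in each NSD1B KO library. On the log2 scale the ratio was 1.41 in NSD1B WT and 0.29 in NSD1B KO, a difference of -1.12 (SD within genotypes 0.08). The difference depended mostly on Kdm4c, as it was -0.15 with Kdm4c left out of the sums and -0.82 with Nsd1 left out. Kdm4c made up 36.3% and 35.2% of the demethylase sum in NSD1B WT and 68.1% and 66.1% in NSD1B KO, while Kdm2a made up 47.1% and 48.2% and then 15.6% and 17.9%. These sums describe the RNA of chosen genes and carry no test.

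**Figure D4:**
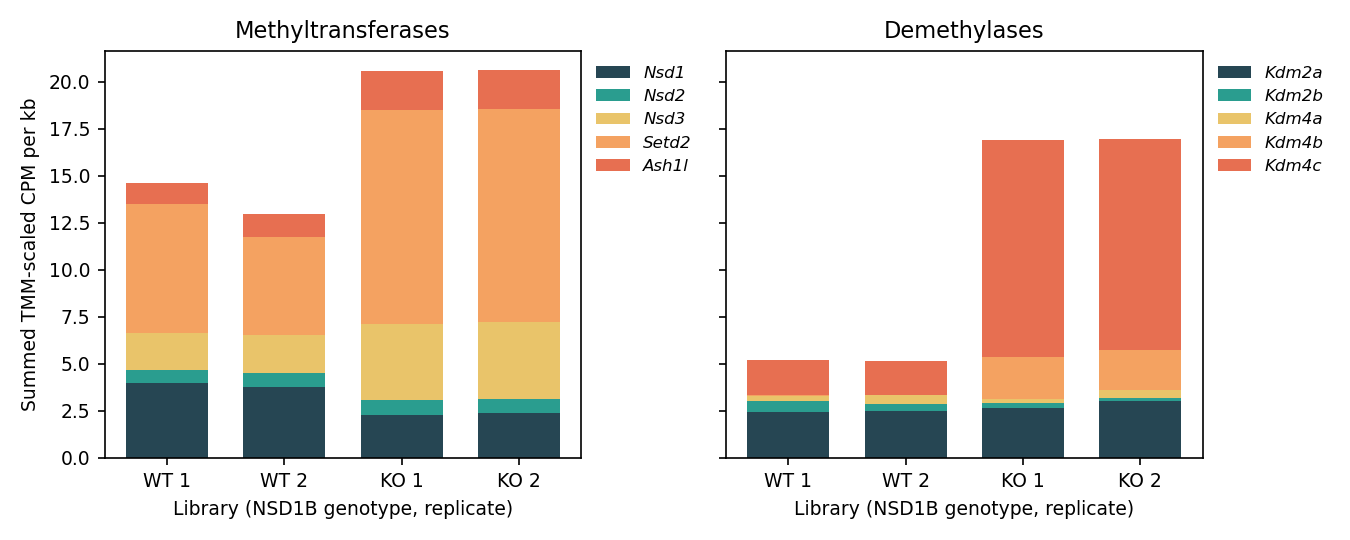
Summed level of the 5 methyltransferases (left) and the 5 demethylases (right) in each library, stacked by gene, as TMM-scaled CPM per kb of exon. The methyltransferase bars reach 14.6 and 13.0 in NSD1B WT and 20.6 and 20.7 in NSD1B KO, and the demethylase bars 5.22 and 5.14 and then 16.9, where Kdm4c is the largest part.

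RefSeq promoters (GRCm38.p6) were at hand for 4 of the 10 members, Setd2, Kdm2b, Kdm4a and Kdm4c. The promoters of Setd2 and Kdm4c, the members among them that rose, are shown as the 250 bases before the annotated start, 5′ to 3′ on the plus strand of the gene, with every CG dinucleotide in capitals. Kdm4c has 2 annotated starts, and counts per gene do not tell which one the reads came from:
Setd2 (chr9:110532347-110532596): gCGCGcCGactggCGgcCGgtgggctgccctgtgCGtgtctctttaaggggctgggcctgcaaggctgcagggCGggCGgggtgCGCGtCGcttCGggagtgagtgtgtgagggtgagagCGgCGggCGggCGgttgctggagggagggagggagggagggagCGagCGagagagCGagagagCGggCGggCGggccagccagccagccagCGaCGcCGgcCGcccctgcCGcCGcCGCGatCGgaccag
Kdm4c, first start (chr4:74242247-74242496): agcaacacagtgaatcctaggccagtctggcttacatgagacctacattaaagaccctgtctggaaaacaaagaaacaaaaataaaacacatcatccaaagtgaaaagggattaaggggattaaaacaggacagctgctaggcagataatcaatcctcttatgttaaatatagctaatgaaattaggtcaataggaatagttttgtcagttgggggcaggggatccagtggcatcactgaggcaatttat
Kdm4c, downstream start (chr4:74251629-74251878): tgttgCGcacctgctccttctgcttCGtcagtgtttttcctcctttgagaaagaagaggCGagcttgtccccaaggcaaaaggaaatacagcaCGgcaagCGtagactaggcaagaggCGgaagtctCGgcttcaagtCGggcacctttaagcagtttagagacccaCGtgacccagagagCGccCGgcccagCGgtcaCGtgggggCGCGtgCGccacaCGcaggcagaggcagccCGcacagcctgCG
The Setd2 promoter holds 31 CG dinucleotides, and 5.2% of the 32851 promoters in the table hold as many. The first Kdm4c start has none, as do 7.87% of all promoters, whereas the downstream start has 19, and 19.7% of all promoters hold as many. The median over all promoters was 6. The Kdm4a promoter holds 12 and the 4 Kdm2b entries hold 12 to 38. None of the 4 members' promoters holds the letters TATAAA on either strand, which are present in 12.4% of all promoters.

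Other genes of the H3K36 pathway were examined as a list of 37 genes, made up of other enzymes, readers of the mark, partners of the members and the genes of replacement histone H3. Of the 32 that could be tested, 14 were called higher, 10 lower and 8 not, with a median log2 fold change of 0.12. Some called genes, such as Kdm8, Riox1, Phf1, Smyd2, Pwwp2a and Hdgfl2, passed the filter only through the genotype where they were high. Their calls are no support for these counts. A filter of 1 CPM in all libraries left 10 called higher and 6 lower. With the length and GC correction 17 were higher and 8 lower. Of all tested genes 78.2% were called, with a median of -0.10. Among the 13 tested genes whose proteins carry a PWWP domain, the fold that reads methylated H3K36, 4 were called higher, 5 lower and 4 not. Psip1, the gene of the reader LEDGF, was 79.0 ± 0.881 CPM in NSD1B WT and 205 ± 14.1 in NSD1B KO (2.60-fold higher, adjusted p = 8.91e-19 by edgeR). Msh6, a mismatch repair gene whose protein reads the trimethyl mark, rose from 21.8 ± 3.37 to 54.1 ± 2.98 CPM (adjusted p = 6.51e-12 by edgeR), and Zmynd8 rose from 28.2 ± 0.942 to 51.5 ± 7.71 CPM (adjusted p = 7.61e-08 by edgeR). In the other direction Hdgf fell from 45.6 ± 0.734 to 20.7 ± 1.80 CPM (adjusted p = 7.18e-10 by edgeR), and Brpf1, a scaffold of histone acetyltransferases, fell from 38.1 ± 3.59 to 20.6 ± 0.747 CPM (adjusted p = 6.37e-07 by edgeR). The DNA methyltransferase gene Dnmt3a had 22 and 20 counts in NSD1B WT and 115 and 97 in NSD1B KO (5.21-fold higher, adjusted p = 2.31e-10 by edgeR), and Dnmt3b had none in any library. Dnmt3a was named after its values were seen.

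KDM2B recruits a variant Polycomb complex, PRC1.1, to CpG islands. Of 8 genes of this complex 7 could be tested, and 5 were called higher and 2 lower. Of all tested genes 78.2% were called, 37.1% higher and 41.1% lower. Pcgf1, the defining subunit of the complex, had 19 and 30 counts in NSD1B WT and 411 and 337 in NSD1B KO, a 15.8-fold increase (adjusted p = 5.25e-23 by edgeR). This was opposite in direction to Kdm2b, whose call was lost in 5 of 14 alternative fits. Bcor, the scaffold of the complex, fell from 25.4 ± 5.20 to 12.6 ± 1.02 CPM (adjusted p = 4.54e-06 by edgeR). Of the 3 partners of SETD2 on RNA polymerase II, Supt6 and Iws1 were not called and Polr2a, the gene of the largest polymerase subunit, was lower. Both genes of replacement histone H3, H3f3a and H3f3b, were called higher, H3f3a 1.27-fold and H3f3b just above the limit, from 5205 ± 164 to 6257 ± 435 CPM.

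Among the other enzymes of H3K36, chosen for mention after their values were seen, Smyd2 had 169 and 172 counts in NSD1B WT and none in NSD1B KO, at least 109-fold lower with 3 counts over the genotype set as the limit. Kdm8 had none in NSD1B WT and 79 and 69 in NSD1B KO, at least 51.2-fold higher. Riox1 had 0 and 1 counts in NSD1B WT and 28 and 34 in NSD1B KO, a ratio of 64.4 (95% counting interval 11.1 to 2583). Kdm4d, a further KDM4 gene, had no count in any library. In the PWWP and Tudor readers, Pwwp2a was at 0 in NSD1B KO (43 and 66 counts in NSD1B WT, at least 35.0-fold lower) and Phf1 at 0 in NSD1B WT (48 and 56 counts in NSD1B KO). With the 4 genes at 0 in a genotype set at their limits the median of the list was 0.12. It could not move, since each limit lay on the same side of the median as the fitted value.

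**Figure D5:**
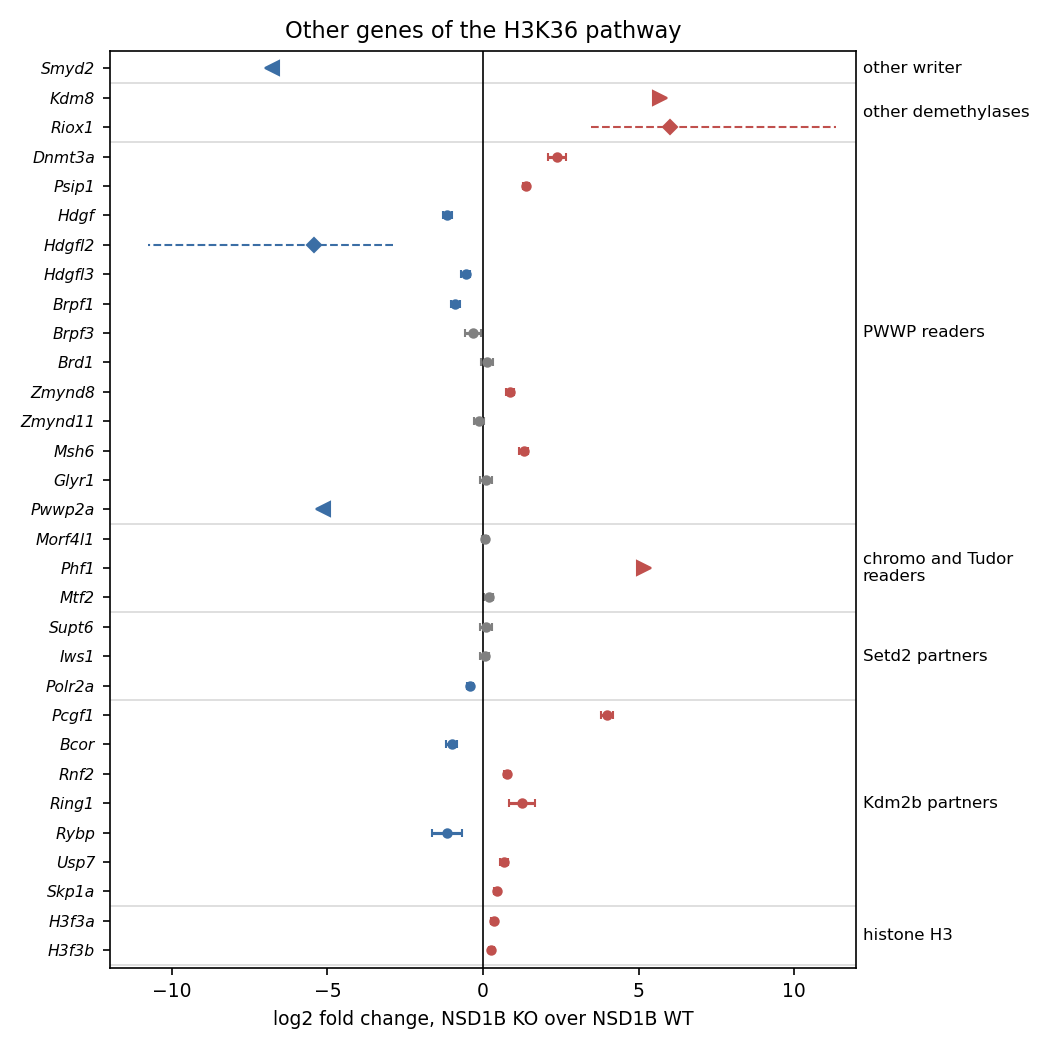
log2 fold change of NSD1B KO over NSD1B WT for 31 of the 32 tested genes of the H3K36 pathway list, by group, as circles with edgeR standard errors, triangles at the limit for genes at 0 in a genotype and diamonds for ratios of counts with a dashed 95% counting interval. Red is called higher (14 genes), blue called lower (9) and grey not called (8), and both directions are found among the PWWP readers and the Kdm2b partners.

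The genes whose level and change were most like those of Nsd1 were found by the distance of log2 CPM over the 4 libraries. The nearest 5 were 0610039K10Rik, Lamp1, Man2b1, Rbm48 and Abce1, at distances of 0.09 to 0.13. Lamp1, a glycoprotein of the lysosomal membrane, had 499 and 448 counts in NSD1B WT and 282 and 288 in NSD1B KO, and Man2b1, the lysosomal alpha-mannosidase, 505 and 489 and then 266 and 268. With 2 libraries per genotype such likeness rests on the level and on 1 difference, and no other member was among the 5.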

How the data were processed

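B220+ B cells from the spleen were profiled by paired-end RNA-seq in 2 NSD1B WT and 2 NSD1B KO libraries, grouped by the genotype in their labels. The authors mapped the reads to mm10 with Bowtie2 and deposited raw counts, as whole numbers for each gene in each library. The methods also describe FPKM from Cufflinks, which did not enter here. How reads were assigned to genes, with what annotation and whether by strand, is not stated in the sources at hand. Entries that name no gene stayed out of library sizes, of which reads on no gene were 44.3% to 44.6% of the listed reads, ambiguous reads 2.21% to 2.41% and reads that were not unique 11.2% to 13.2%.

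Counts were scaled by TMM (factors 0.952 to 1.029) and tested with edgeR 4.0.16 in R 4.3.3 by the quasi-likelihood test, after a filter on low counts (filterByExpr, min.count 10, min.total.count 15). p was adjusted over all 11657 tested genes by the Benjamini-Hochberg method. The call limits (0.05 for adjusted p, 1.2 for the fold) follow the study, which does not say in its methods whether its p is adjusted. Standard errors were derived from the quasi-likelihood F statistic, and approximate 95% intervals from them. Exon lengths, positions and overlaps came from GENCODE M21, which matched 99.5% of the identifiers when version numbers were ignored. Intervals on counts and limits set by 3 counts cover counting error only, since the reads carry no molecular identifiers. The procedure was tested on simulated data.

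Alternatives were DESeq2 size factors, library size alone, scaling by the upper quartile, limma-voom (limma 3.58.1), the DESeq2 1.42.0 Wald test, filters of 1 count in any library and of 1 CPM in all 4, each library left out, the replicate number as a block, a loess correction for exon length and GC content (span 0.5, both known for 99.91% of tested genes), other call limits and other gene lengths. The longest coding transcript as the length and the sums without Kdm4c or Nsd1 were added after the data were seen.

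The members, the pathway list and the marker lists were chosen with earlier results of these data known. Of the pathway list, the text names the called genes with the 4 largest increases and 4 largest decreases at a mean log2 CPM of at least 3 with no overlap between genotypes, and marks others as named later. Some items are not reported here. Figures were drawn with matplotlib.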

Additional observations from a re-analysis of the deposited data

How the results depend on the processing

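Over 139 refits of single members, 130 kept their direction and their side of the threshold. The other 9 were those of Kdm2b, where the call was lost 5 times, and Kdm4a, not called in any of them, where the sign changed 4 times. Kdm2b lost its call with DESeq2, with the length and GC correction (log2 fold change -0.79, adjusted p = 0.0516) alone or with the replicate block (-0.81), and without NSD1B WT replicate 1 or NSD1B KO replicate 2. Kdm4a turned to 0.38 with the length and GC correction, to 0.39 with that correction and the replicate block and without NSD1B WT replicate 2, and to 0.24 without NSD1B KO replicate 1, within a range of -0.67 to 0.39 over the left-out libraries. The number of members called lower was therefore 1 in place of 2 with DESeq2, with the length and GC correction, with or without the block, and with stricter call limits (1e-05 for adjusted p, 0.5 for the log2 change), and 1 to 2 with a library left out. Nsd1 lay between -0.89 and -0.66 in all its alternatives.

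The median of the methyltransferases was 0.76 with library size alone and 0.80 with upper quartile scaling and with the filter of 1 CPM in all libraries. It was 0.76 with the length and GC correction, also with the block, and 0.75 to 0.84 with a library left out. The median of the demethylases was -0.02 with the filter of 1 CPM, where Kdm4b was not tested. It was 0.38 with the length and GC correction, 0.39 with the block added, and 0.09 to 0.39 with a library left out. This correction moved the median of all tested genes from -0.10 to 0.23. The filter of 1 CPM left 2855 genes called higher and 2991 lower of 8334, since fewer genes were tested. In the pathway list it left 10 higher and 6 lower. The difference of the log2 ratio of writers to erasers was -0.95 with the longest transcript or the longest coding transcript as the length, -0.68 without division by length, -0.15 without Kdm4c and -0.82 without Nsd1, and -1.20 to -1.04 with a library left out.

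The replicate numbers are shared by the genotypes only as numbers. The deviations of same-numbered libraries correlated at 0.0645, and with the replicate block 5 members were called higher and 2 lower, and 4254 and 4706 genes in all. Depth limits Kdm4a, Kdm2b and the NSD1B WT level of Kdm4b, which rest on at most 44 counts in any library.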
